A study of Mus musculus with 12 samples.

Results

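The tumour suppressor p53 and a set of its target genes were examined in 4 mouse lung adenocarcinoma cell lines, KC1 to KC4. The members were 10 genes: Trp53 itself, Mdm2, Ccng1, Trp53inp1, Sesn1, Zmat3, Bbc3, Pmaip1, Phlda3 and Gdf15. Every probe set annotated to one of these symbols alone was taken, which gave 16 of the 45037 probe sets tested and covered 8 of the 10 genes. Trp53 and Gdf15 had no single-symbol probe set in the annotation used here and were not analysed here, so nothing below measures the p53 transcript. The lines came from primary lung tumours of mice that carried K-rasLA1, an allele that turns on mutant K-ras sporadically, and lacked both copies of Cdkn1a. The labels class KC1, KC2 and KC3 as highly metastatic, with KC4 the one poorly metastatic line, and the study compared these classes. All 12 samples share the genotype K-rasLA1/+; Cdkn1a-/-, the background given as 127s, and culture in RPMI medium with fetal bovine serum. Each line had 3 biological replicates, each on 1 array. The labels count 6 primary tumours from 4 mice without assigning the lines to tumours or mice. KC4 is the only line of its class, so the poorly metastatic class and the line KC4 cannot be told apart.

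p53 is a transcription factor that is held low in unstressed cells by its own target Mdm2, a ubiquitin ligase that marks it for degradation. DNA damage or oncogene signalling through the Cdkn2a product p19Arf frees it, and it then switches on genes for cell-cycle arrest, DNA repair, metabolic restraint and cell death. In mouse lung tumours driven by mutant K-ras, loss of p53 is known to favour progression.

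Values are linear signals, and differences are on the log2 scale after signals under 16 were set to 16. A difference was called where limma's adjusted p was under 0.05 and the log2 difference at least 1. The class difference is the mean over KC1, KC2 and KC3, minus KC4. Except where the line enters as a random block or is ignored, its SE and adjusted p rest on the spread of arrays within lines. They do not measure how far lines of one class differ from each other. The mean signal trimmed by 2% at each end was 500.002 to 500.003 on every array as deposited. Across probe sets, Spearman rho was 0.965 to 0.970 between arrays of one line and 0.930 to 0.951 between lines. Of the control probe sets, only the one for the 5-prime end of 18S ribosomal RNA was compared between lines. It averaged 605, 451 and 414 in the highly metastatic lines KC1 to KC3, against 3305 in KC4, and its part in the results was not tested. The epithelial markers Epcam, Cdh1 and the keratins were bright, while Nkx2-1, Sftpc, Napsa and Scgb1a1, which mark lung epithelial cells, stayed under a log2 level of 7 in every line. Together these 10 markers summed to 80225 to 99719 in the highly metastatic lines and 70243 to 83484 in KC4. By limma 0 of the 10 were called between the classes. By the adjusted p alone 2 were higher and 2 lower (15.9% and 14.4% of genes), and their part in the results was not tested. Summed signals were 376 to 591 in the highly metastatic lines and 381 to 653 in KC4 for 7 fibroblast markers. For 8 leukocyte markers they were 654 to 1422 in the highly metastatic lines and 974 to 1170 in KC4. For 5 endothelial markers they were 355 to 547 in the highly metastatic lines and 393 to 500 in KC4. Of these 20 fibroblast, leukocyte and endothelial markers 0 were called between the classes by limma and 2 had an unadjusted p under 0.05. Both passed the adjusted p alone: the macrophage marker Cd68 as higher (0.58, adjusted p = 0.00219) and the endothelial Cdh5 as lower (-0.32, adjusted p = 0.0123) in the highly metastatic lines. Their part in the results was not tested. Pdgfrb, which marks pericytes and fibroblasts, was at the floor on all arrays. As bulk RNA, more transcript per cell and more cells with the transcript cannot be told apart.

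Cdkn1a, whose product p21 halts the cell cycle, is the classical arrest target of p53 and is the gene deleted in these mice, and it gave a bright signal. Cdkn1a measured 7797 ± 457 for KC1, 5898 ± 504 for KC2 and 6721 ± 507 for KC3, beside 4355 ± 478 for KC4 (SD, n = 3 each), all arrays of the highly metastatic lines lying above KC4 (log2 difference 0.64, SE 0.0793, limma adjusted p = 0.000376). The sources used here do not place its probes relative to the deleted part, so this signal does not check the genotype labels.

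The promoters of the members were searched for the p53 motif. RefSeq windows for assembly GRCm38.p6, running from 250 bases before to 50 bases after a transcript start, were found for 5 of the 8 measured genes, in 8 windows. The 10-base unit searched in each is a half-site of the p53 response element consensus and its own reverse complement. It occurred in 3 of the 8 windows and in 8.36% of 32851 mouse windows of this length. A pair of such units up to 13 bases apart occurred in 0 of the 8 windows and in 0.0731% of all. The 3 windows, of Mdm2 (chr10:117710709-117711008, minus strand), Ccng1 (chr11:40755237-40755536, minus strand) and Sesn1 (chr10:41887189-41887488, plus strand), are printed 5′ to 3′ along the transcript with the unit in capitals.
Mdm2: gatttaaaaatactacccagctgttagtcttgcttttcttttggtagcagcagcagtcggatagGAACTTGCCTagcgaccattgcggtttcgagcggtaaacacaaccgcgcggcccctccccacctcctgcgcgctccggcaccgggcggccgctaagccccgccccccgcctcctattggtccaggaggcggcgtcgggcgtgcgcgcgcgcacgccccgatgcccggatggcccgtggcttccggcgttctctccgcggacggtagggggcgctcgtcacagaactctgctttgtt
Ccng1: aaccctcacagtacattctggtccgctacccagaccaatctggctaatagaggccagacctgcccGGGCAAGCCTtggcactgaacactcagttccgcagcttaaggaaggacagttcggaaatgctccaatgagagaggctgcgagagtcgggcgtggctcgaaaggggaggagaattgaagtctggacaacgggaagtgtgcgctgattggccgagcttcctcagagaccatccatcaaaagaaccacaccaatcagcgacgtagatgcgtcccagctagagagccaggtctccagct
Sesn1: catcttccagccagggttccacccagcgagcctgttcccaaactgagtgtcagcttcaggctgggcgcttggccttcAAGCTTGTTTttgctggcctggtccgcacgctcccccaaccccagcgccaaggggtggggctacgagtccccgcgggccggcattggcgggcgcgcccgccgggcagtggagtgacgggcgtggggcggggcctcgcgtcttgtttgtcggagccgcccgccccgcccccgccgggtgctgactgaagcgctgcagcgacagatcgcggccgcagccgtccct
The Mdm2 unit, GAACTTGCCT, began 186 bases before the start and the Sesn1 unit, AAGCTTGTTT, 173 bases before it. In Ccng1 the unit GGGCAAGCCT began 185 bases before the start and directly followed AGACCTGCCC, which departs from the consensus at 1 base. Such a unit with a second one at no more than 1 mismatch, up to 13 bases away, was found in 1.09% of all windows. A second Sesn1 window, the 3 windows of Bbc3 and the window of Phlda3 held no unit, which says only that these letters are not in those stretches. Of the members not measured on the arrays, Trp53 had a window with 1 unit, GGACTTGCCC, 75 bases before the start, and the windows of Gdf15 held no unit.

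Over all members, the class difference was called for 1 probe set as higher and 1 as lower in the highly metastatic lines. Over all 45037 probe sets, 2.49% were called higher and 2.1% lower. Trp53inp1 was the gene that rose and Pmaip1 the gene that fell. By the adjusted p alone, 9 of 16 probe sets were higher and 3 lower, beside 12.2% and 11.2% of all probe sets. Several of these share a gene. Counted by gene on the brightest probe set, 5 of 8 were higher and 2 lower, beside 15.9% and 14.4% of genes. All arrays of the highly metastatic lines lay above those of KC4 for 7 probe sets and below them for 1, beside 5.1% and 5.59% of all. The 7 were those of Ccng1, Trp53inp1, Zmat3 and Phlda3. By the brightest probe set of each gene, the median class difference was 0.29 over the 8 genes and -0.000883 over 18193 genes. With the line as a random block, a fit that still uses the 12 arrays but lets arrays of a line correlate (estimated correlation 0.426), only the 2 Trp53inp1 probe sets of the 16 kept an adjusted p under 0.05 and 1 of them the call.

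**Figure D1:**
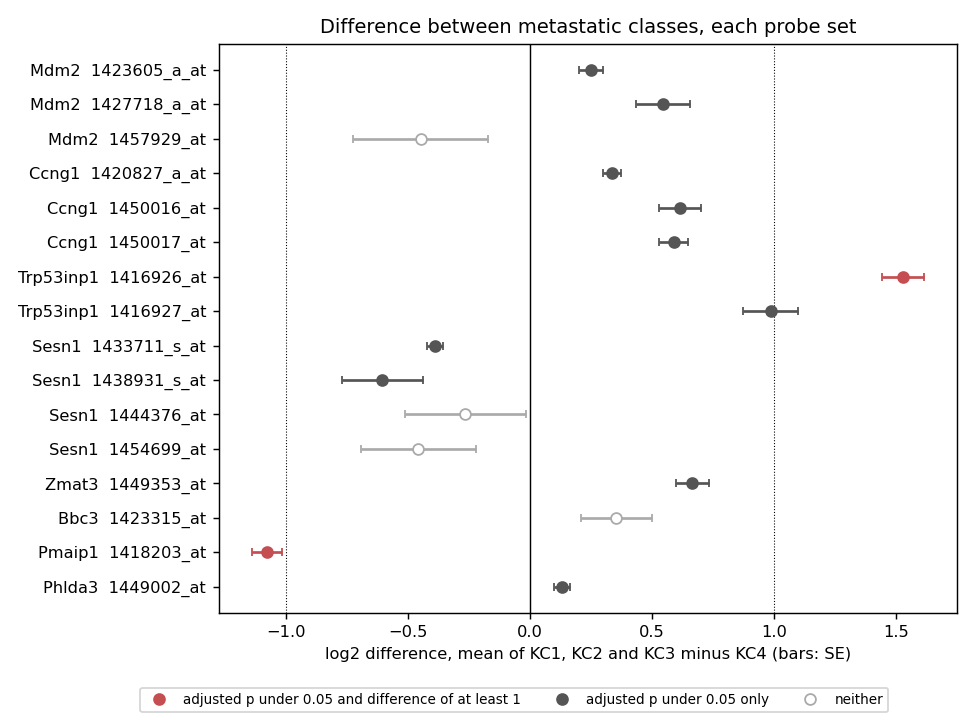
Log2 difference, mean over KC1, KC2 and KC3, minus KC4, for each of the 16 probe sets (points, with the SE as bars; dotted lines at a difference of 1 in either direction). The brighter Trp53inp1 probe set at 1.53 and Pmaip1 at -1.08 lie past the dotted lines, and the other Trp53inp1 probe set at 0.99 lies just inside.

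Mdm2 and Ccng1 had their highest means in KC1 on their brightest probe sets. Mdm2, the ligase that degrades p53, gave signals on its brightest probe set (1423605_a_at) of 4025, 3896 and 4112 in KC1, 2319.8, 2345 and 2458 in KC2 and 3032, 3324 and 3299 in KC3, against 2488, 2877 and 2543 in KC4. KC1 arrays were the highest, KC3 came next, and KC2 and KC4 lay lowest and close together. The line means were 4011 ± 109 for KC1, 2374 ± 73.9 for KC2 and 3218 ± 162 for KC3, beside 2636 ± 210.3 for KC4 (SD, n = 3 each). KC1 was above KC4 by 0.61 (SE 0.0599, limma adjusted p = 0.000139), above KC2 by 0.76 (adjusted p = 4.4e-05) and above KC3 by 0.32 (adjusted p = 0.00392). KC3 was above KC4 by 0.29 (adjusted p = 0.00676). KC2 and KC4, at the low end of the order, were not separated (difference -0.15, adjusted p = 0.112). The class difference of 0.25 (SE 0.0489, adjusted p = 0.00522) therefore averages KC1 and KC3, which were above KC4, with KC2, which was not separated from KC4. Arrays of the classes overlapped.

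A second Mdm2 probe set (1427718_a_at) showed the same order at the top with wider steps. It measured 1858, 1806 and 2036 in KC1, 965, 969.9 and 900.1 in KC2 and 1101, 1559 and 1387 in KC3, against 1077, 834 and 858 in KC4. KC1 rose against KC4 by 1.05 (SE 0.135, limma adjusted p = 0.000675) and against KC2 by 1.01 (adjusted p = 0.000896). KC2 minus KC4 was 0.04 (adjusted p = 0.937). Leaving out 1 array took both calls just under a difference of 1, to 0.98 for KC1 minus KC4 without KC4 replicate 2 and to 0.96 for KC1 minus KC2 without KC1 replicate 3. The third Mdm2 probe set (1457929_at) was dim, at 5.34 to 43.5 in the highly metastatic lines against 14 to 43.6 in KC4, with all 3 KC3 arrays at the floor. It was called for KC2 minus KC3 (1.15, adjusted p = 0.0318), with KC3 having only the floor as its value, so the size depends on the floor. This call ended in 10 of 20 alternatives, among them leaving out KC2 replicate 2 or 3 or any 1 of the KC3 arrays, and with a floor of 64 both lines were level. 1 of the 10 was the minimum difference of 2, which ends any call of this size.

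Ccng1 encodes cyclin G1, which brings protein phosphatase 2A to Mdm2. Its brightest probe set (1420827_a_at) measured 11486, 11600 and 11838 in KC1, 9190.4, 8378 and 8714 in KC2 and 8328, 7987 and 8929 in KC3, against 7566, 7630.0 and 7407 in KC4. Every array of the highly metastatic lines was above every KC4 array, and KC1 stood above KC2 and KC3 as well. The means were 11642 ± 180.0 for KC1, 8761 ± 408 for KC2 and 8414 ± 477 for KC3, beside 7534 ± 115 for KC4 (SD, n = 3 each). KC1 minus KC4 was 0.63 (SE 0.046, limma adjusted p = 2.38e-05), KC1 minus KC2 0.41 (adjusted p = 0.000314) and KC1 minus KC3 0.47 (adjusted p = 8.35e-05). KC2 and KC3 were not separated (0.06, adjusted p = 0.425), and KC3 exceeded KC4 by 0.16 (adjusted p = 0.0352). The class difference was 0.33 (SE 0.0375, adjusted p = 0.000205), short of a call.

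On the other Ccng1 probe sets too, the arrays of the highly metastatic lines lay wholly above KC4. The first (1450016_at) measured 6481, 5851 and 6310.2 in KC1, 4613, 5263 and 4622 in KC2 and 4687, 5630.4 and 5077 in KC3, against 4060.2, 3276 and 3213 in KC4, with a class difference of 0.61 (limma adjusted p = 0.000759). The second (1450017_at) measured 5743, 6217 and 6024 in KC1, 4101, 4735 and 4626 in KC2 and 4039, 4221 and 4258 in KC3, against 3492, 3209 and 2937 in KC4, with a class difference of 0.59 (adjusted p = 0.000109). KC1 was again highest on both, although on 1450016_at its step over KC3 was 0.28 (adjusted p = 0.0929).

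Trp53inp1 was the member that marked KC4. It encodes a stress-induced nuclear protein that takes part in p53-dependent cell death and in autophagy. Its brighter probe set (1416926_at) measured 7335, 7237 and 6598 in KC1, 5411, 7068 and 6203 in KC2 and 6949.9, 6984 and 6691 in KC3, against 2338, 2073 and 2588 in KC4. The 9 arrays of the highly metastatic lines shared one range, and the KC4 arrays lay far under it. The means were 7057 ± 399.8 for KC1, 6227 ± 829 for KC2 and 6875 ± 160.0 for KC3, beside 2333 ± 258 for KC4 (SD, n = 3 each). The class difference was 1.53 (SE 0.0861, limma adjusted p = 3.32e-06), a 2.88-fold higher level in the highly metastatic lines. Trp53inp1 rose in KC1 by 1.60, in KC2 by 1.41 and in KC3 by 1.56 against the same KC4 arrays (adjusted p = 1.24e-05, 1.31e-05 and 9.08e-06). KC1 minus KC2 was 0.19 (SE 0.105, adjusted p = 0.312), KC1 minus KC3 0.04 (adjusted p = 0.929) and KC2 minus KC3 -0.15 (adjusted p = 0.363). It was the only one of the 16 probe sets that set KC4 apart, being called against each of the other 3 lines, beside 0.713% of all probe sets that did so as lower in KC4. Its adjusted p was 0.000511 when the line entered as a random block and 2.76e-07 to 0.000511 over all alternatives.

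The dimmer Trp53inp1 probe set (1416927_at) also had KC4 lowest, at lower signal. It measured 180.0, 189.9 and 211 in KC1, 151, 176 and 199.6 in KC2 and 175, 227 and 219.5 in KC3, against 102, 84.4 and 104 in KC4. The class difference was 0.99 (SE 0.113, limma adjusted p = 0.000232), which missed the call by its size alone and was called in 9 of 26 alternatives, at up to 1.05 without line KC2. 1 of the 9 set no minimum difference, where the call was certain beforehand. KC3 minus KC4 was 1.10 (adjusted p = 0.000403) and KC1 minus KC4 1.00 (adjusted p = 0.00099), both called, while KC2 minus KC4 was 0.86 (adjusted p = 0.00146). The KC1 call ended with 0.91 when KC4 replicate 2 was left out and with 0.98 after quantile normalization.

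On their brightest probe sets, 165 genes (0.907%), Trp53inp1 among them, were called lower in KC4 than in each other line. Given here are only the 3 genes with the highest Pearson r with Trp53inp1, and further followers were not counted. Among 4529 genes whose line means spanned at least 1 log2 unit, Slc4a11, a membrane transporter, had a Pearson r of 0.996 with it over the 12 arrays, Bspry 0.990 and Ap1m2, an adaptor subunit of epithelial sorting, 0.979. The 12 arrays are 3 from each of 4 lines, so these values describe one step between KC4 and the rest. Slc4a11, for example, measured 5474 ± 274 for KC1, 5200 ± 557 for KC2 and 5503 ± 250 for KC3, beside 1933 ± 77.9 for KC4 (SD, n = 3 each).

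**Figure D2:**
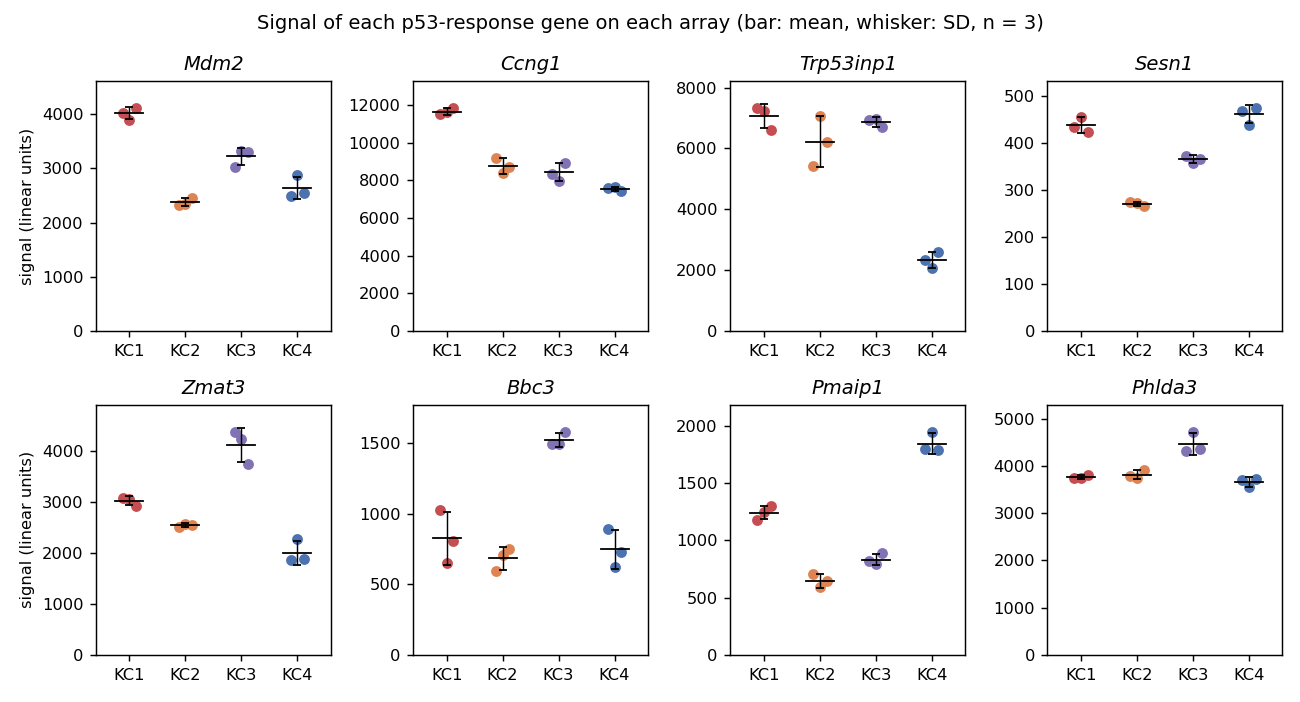
Linear signal of the brightest probe set of each of the 8 genes on each array, by line (points, single arrays; horizontal bar and whiskers, mean and SD, n = 3; every axis starts at 0). Trp53inp1 arrays of KC1, KC2 and KC3 share one range above KC4, Pmaip1 is highest in KC4, and Zmat3, Bbc3 and Phlda3 are highest in KC3.

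Sesn1 was lowest in KC2 and highest in KC4 and KC1. It encodes sestrin 1, a stress-induced inhibitor of the growth kinase complex mTORC1. Its brightest probe set (1433711_s_at), whose ending marks probes that may pick up related transcripts, measured 436, 457 and 425 in KC1, 275, 273 and 267 in KC2 and 374, 358 and 367 in KC3, against 469.7, 439.9 and 476 in KC4. KC2 arrays lay under all others, KC3 arrays next, and KC1 and KC4 arrays overlapped at the top. The means were 439 ± 16.6 for KC1, 271 ± 4.32 for KC2 and 366 ± 8.01 for KC3, beside 462 ± 19.2 for KC4 (SD, n = 3 each). KC2 was below KC4 by 0.77 on the log2 scale (difference -0.77, SE 0.0389, limma adjusted p = 1.26e-06), and KC3 minus KC4 was -0.33 (adjusted p = 0.000248). KC1 minus KC4 was -0.07 (adjusted p = 0.275). The class difference was -0.39 (SE 0.0317, adjusted p = 2.88e-05).

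The remaining Sesn1 probe sets were noisier. On 1438931_s_at the signals were 395, 474 and 472 in KC1, 262, 175 and 253 in KC2 and 234, 201 and 278 in KC3, against 351, 522 and 458 in KC4, with a class difference of -0.61 (limma adjusted p = 0.0277). There KC1 and KC4 were high and KC2 and KC3 low, with a difference of -0.06 between KC2 and KC3 (adjusted p = 0.935). On 1454699_at the signals ran from 69.3 to 231 in the highly metastatic lines against 125 to 188 in KC4 (class difference -0.46, adjusted p = 0.23). KC1 minus KC2 was called there (1.01, adjusted p = 0.0411), and this call ended in 11 of 21 alternatives. The dim 1444376_at ran from 3.06 to 39 in the highly metastatic lines against 25.2 to 43 in KC4, with a class difference of -0.27 (adjusted p = 0.549).

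Zmat3 encodes a zinc-finger protein that binds RNA and affects splicing and stability of its targets. It measured 3077, 3063 and 2926 in KC1, 2499, 2569 and 2554 in KC2 and 4378, 4239.9 and 3745 in KC3, against 1853, 2278 and 1880.1 in KC4. Arrays of the highly metastatic lines lay above KC4 throughout, with KC3 on top. The means were 3022 ± 83.5 for KC1, 2541 ± 36.6 for KC2 and 4121 ± 333 for KC3, beside 2004 ± 238 for KC4 (SD, n = 3 each). Zmat3 rose in KC3 against KC4 by 1.04 (SE 0.0836, limma adjusted p = 2.62e-05), a 2.06-fold higher level. KC1 minus KC4 was 0.60 (adjusted p = 0.00106) and KC2 minus KC4 0.35 (adjusted p = 0.0129), both under the minimum size. KC3 also exceeded KC1 (KC1 minus KC3 -0.44, adjusted p = 0.00396) and KC2 (KC2 minus KC3 -0.69, adjusted p = 0.000215). Between the classes the difference was 0.66 (SE 0.0683, adjusted p = 0.000121). The call for KC3 ended at 0.99 without KC4 replicate 1 and at 0.998 without KC3 replicate 1. The medians of KC3 replicates 1, 2 and 3 lay at -0.22, -0.24 and -0.01 from the average over arrays on the log2 scale, and with each array centred on its median KC3 minus KC4 was 1.22.

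The cell-death effectors diverged. Bbc3 encodes PUMA and Pmaip1 encodes NOXA, both BH3-only proteins that neutralise BCL-2 family survival factors. Bbc3 measured 1024, 652 and 804 in KC1, 595, 706 and 749 in KC2 and 1493, 1491 and 1580.4 in KC3, against 893, 619 and 728 in KC4. The 3 KC3 arrays stood clear of the rest, and the other 9 arrays overlapped. The means were 827 ± 187 for KC1, 683 ± 79.4 for KC2 and 1521 ± 51.1 for KC3, beside 747 ± 138 for KC4 (SD, n = 3 each). KC3 rose against KC4 by 1.04 (SE 0.179, limma adjusted p = 0.00247), and KC2 minus KC3 was -1.16 (adjusted p = 0.00101), also called. KC1 minus KC3 was -0.90 (adjusted p = 0.0053). KC1 minus KC4 was 0.14 (adjusted p = 0.724) and KC2 minus KC4 -0.12 (adjusted p = 0.753). Between the classes the difference was 0.35 (SE 0.146, adjusted p = 0.131), and it was 0.23 without KC4 replicate 2 and 0.01 without line KC3. The KC3 minus KC4 call ended at 0.91 without KC4 replicate 2 and at 0.98 with quantile normalization.

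Pmaip1 was highest in KC4. It measured 1181, 1247 and 1296 in KC1, 706, 588 and 643 in KC2 and 815, 793 and 886 in KC3, against 1796, 1948 and 1786 in KC4. All arrays of the highly metastatic lines lay below those of KC4, and no arrays of any 2 lines overlapped. The means were 1241 ± 57.7 for KC1, 646 ± 58.8 for KC2 and 832 ± 48.8 for KC3, beside 1844 ± 90.8 for KC4 (SD, n = 3 each). Between the classes it differed by -1.08 (SE 0.0602, limma adjusted p = 3.1e-06), a 2.11-fold lower level in the highly metastatic lines. Pmaip1 fell in KC2 (-1.52, adjusted p = 9.69e-07) and in KC3 (-1.15, adjusted p = 6.84e-06) against KC4. KC1 minus KC4 was -0.57 (adjusted p = 0.000676), under the minimum size. KC1 exceeded KC2 by 0.95 (adjusted p = 4.05e-05) and KC3 by 0.58 (adjusted p = 0.000412), and KC2 minus KC3 was -0.37 (adjusted p = 0.00461), so all steps in the order KC4, KC1, KC3, KC2 passed the adjusted p. The class call ended with the line as a random block (adjusted p = 0.0633, 5.71e-07 to 0.0633 over all alternatives) and without line KC2 (-0.86).

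Phlda3 had the narrowest span of line means. Its product competes with the survival kinase Akt for membrane lipids. It measured 3743, 3739 and 3819 in KC1, 3798, 3739.6 and 3916 in KC2 and 4313, 4731 and 4369 in KC3, against 3705, 3550.1 and 3730.3 in KC4. KC3 arrays were above all others, and KC1, KC2 and KC4 arrays lay close together, although no array of the highly metastatic lines fell below the KC4 arrays. The means were 3767 ± 45 for KC1, 3818 ± 89.6 for KC2 and 4471 ± 227 for KC3, beside 3662 ± 97.6 for KC4 (SD, n = 3 each). KC3 minus KC4 was 0.29 (SE 0.0389, limma adjusted p = 0.000617). KC1 minus KC4 was 0.04 (adjusted p = 0.582), KC2 minus KC4 0.06 (adjusted p = 0.348) and the class difference 0.13 (SE 0.0318, adjusted p = 0.0166).

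Set side by side, the members gave no single order of the lines. On the brightest probe sets, KC1 had the highest mean of Mdm2, Ccng1 and Trp53inp1, KC3 of Zmat3, Bbc3 and Phlda3, and KC4 of Sesn1 and Pmaip1. KC4 had the lowest mean of Ccng1, Trp53inp1, Zmat3 and Phlda3, and KC2 of Mdm2, Sesn1, Bbc3 and Pmaip1. Among these, the top of Trp53inp1 and Sesn1 and the bottom of Mdm2, Bbc3 and Phlda3 were not separated from the next line at an adjusted p under 0.05. Over the 12 arrays, Sesn1 and Pmaip1 had a Pearson r of 0.905, Bbc3 and Phlda3 0.862 and Zmat3 and Phlda3 0.808, while Trp53inp1 and Pmaip1 had -0.75. These coefficients describe 4 lines measured in triplicate.

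**Figure D3:**
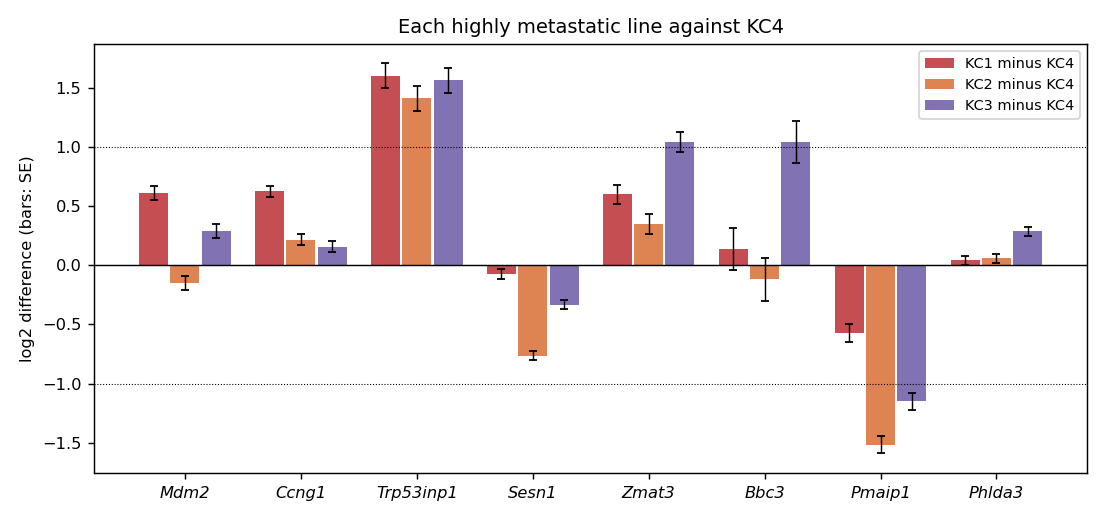
Log2 difference of each highly metastatic line from KC4 on the brightest probe set of each gene (bars, with the SE as whiskers; dotted lines at a difference of 1 in either direction; the 3 bars of a gene share the KC4 arrays). Trp53inp1 passes 1 in all 3 lines, Zmat3 and Bbc3 in KC3, and Pmaip1 passes -1 in KC2 and KC3.

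Pair by pair, 14 calls were made among 96 tests of the 16 probe sets in the 6 pairs of lines. Against the shared KC4 arrays, KC1 had 3 probe sets higher and 0 lower (3.09% and 1.66% of all probe sets), KC2 had 1 and 1 (4.26% and 3.73%), and KC3 had 4 and 1 (2.74% and 3.96%). KC1 minus KC2 had 2 higher and 0 lower (2.49% and 1.55%), and KC2 minus KC3 had 1 and 1 (5.44% and 3.97%). KC1 minus KC3 had 0 calls either way (4.78% and 2.21%), with 7 probe sets higher and 3 lower by limma's adjusted p alone (13.8% and 11.2%). Under an unadjusted p of 0.05 there were 11 probe sets, and the share over all probe sets was not counted. Between KC2 and KC3, 6 of the 8 brightest probe sets were lower in KC2 by the adjusted p alone and 0 higher (18.2% and 18.3% of genes). The exceptions were Ccng1 and Trp53inp1.

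Variation among all 4 lines was common in the group. By limma's moderated F test, all 8 genes passed the adjusted p on their brightest probe set (48% of genes), and 4 also spanned at least 1 log2 unit (18.6% of genes): Trp53inp1, Pmaip1, Bbc3 and Zmat3. Over the 16 probe sets, 13 passed (38.6%) and 6 also spanned that much (16.1%). The median span of the line means was 0.90 over the 8 genes and 0.64 over all genes. The values over all genes include dim ones, and 15.33% to 19.97% of probe sets lay at the floor on each array. Genes of like brightness were not compared.

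Other genes of the pathway were counted on their brightest probe set. Of 44 further p53 target genes, 41 were measured, 2 rose and 1 fell in the highly metastatic lines (2.85% and 2.51% of genes), and 17 were higher and 4 lower by the adjusted p alone (15.9% and 14.4%). The 17 included Cdkn1a, the gene deleted per the labels, whose limma adjusted p was 0.0844 with the line as a random block. The other uncalled genes of the 17 were not looked at in that fit. The median class difference of the 41 was 0.24. Igfbp3, which binds insulin-like growth factors, rose by 1.29 (SE 0.0756, limma adjusted p = 4.11e-06), measuring 2705 ± 169 for KC1, 368 ± 40.8 for KC2 and 3405 ± 230.5 for KC3, beside 615 ± 47.9 for KC4 (SD, n = 3 each). Psrc1, a microtubule-associated mitotic protein, rose by 1.03 (adjusted p = 2.65e-07), measuring 4638 ± 223 for KC1, 1546 ± 62.9 for KC2 and 4804 ± 155 for KC3, beside 1598 ± 46.5 for KC4 (SD, n = 3 each). Both were high in KC1 and KC3. In KC2, Psrc1 was not separated from KC4 (-0.05, limma adjusted p = 0.565), and Igfbp3 was below KC4 (-0.74, adjusted p = 0.0003), under the minimum size. Gadd45a, a growth-arrest and DNA-damage protein, fell by 1.19 on the log2 scale (difference -1.19, adjusted p = 6.67e-06), measuring 939.7 ± 34.5 for KC1, 202 ± 7.79 for KC2 and 2974 ± 25.7 for KC3, beside 1897 ± 279.6 for KC4 (SD, n = 3 each). KC2 was lowest and KC1 next, while KC3 was above KC4. The Igfbp3 probe set, like those of Bmf, Vldlr and Nupr1 below, has an ending that marks probes able to pick up related transcripts.

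Regulators and relatives of p53 showed no class call: of 28 listed symbols, 26 were measured and 0 were called either way. Setd8 and Kmt5a are symbols of the same gene, which was measured as Kmt5a. By limma's adjusted p alone 5 of the 26 were higher and 4 lower, beside 15.9% and 14.4% of all genes. The unadjusted p gave 9 and 4, and the share over all genes was not counted. The median class difference was 0.05. Among the genes that set 1 line apart, named here after their values were seen, Cdkn2a stood out in KC2. Its locus encodes p16Ink4a and p19Arf, the inhibitor of Mdm2, and it measured 39.5 ± 5.59 for KC1, 382 ± 3.28 for KC2 and 31.7 ± 6.71 for KC3, beside 71.6 ± 2.18 for KC4 (SD, n = 3 each). KC2 exceeded KC4 by 2.41 (limma adjusted p = 4.47e-06), with KC1 minus KC2 at -3.28 (adjusted p = 1.87e-06) and KC2 minus KC3 at 3.61 (adjusted p = 3.79e-07). Chek2, a checkpoint kinase that phosphorylates p53, was apart in KC3, measuring 906 ± 17.5 for KC1, 921 ± 27 for KC2 and 361 ± 16.7 for KC3, beside 733 ± 14.5 for KC4 (SD, n = 3 each). From the list of further p53 target genes, Dram1, a lysosomal protein of autophagy, was apart in KC1 as higher, and Gadd45a and the receptor gene Eda2r in KC2 as lower. In the BCL-2 family, counted below, 1 gene set KC3 apart. Over all genes, 0.704% were apart as higher in KC1. In KC2 0.808% were apart as higher and 1.01% as lower, and in KC3 0.824% and 1.51%.

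The partners of Bbc3 and Pmaip1 were counted next. Of 19 genes of the BCL-2 family, 14 were measured, 2 rose and 0 fell (2.85% and 2.51% of genes), with 7 higher and 1 lower by limma's adjusted p alone (15.9% and 14.4%) and a median of 0.29. Bcl2l11, which encodes the BH3-only protein BIM, rose by 1.06 (SE 0.0398, adjusted p = 2.92e-07), measuring 2536 ± 23.9 for KC1, 3492 ± 126 for KC2 and 2357 ± 142 for KC3, beside 1321 ± 51.4 for KC4 (SD, n = 3 each). Bmf, another BH3-only gene, rose by 1.05 (SE 0.139, adjusted p = 0.000539), measuring 329.6 ± 24 for KC1, 582 ± 146 for KC2 and 184 ± 12.5 for KC3, beside 158 ± 19.8 for KC4 (SD, n = 3 each). The Bmf call ended at 0.99 without KC2 replicate 1, at 0.98 without KC4 replicate 3 and with the line as a random block (adjusted p = 0.423, 8.06e-05 to 0.423 over all alternatives), and the mean of its probe sets was at 0.49. The other BH3-only genes of the list, Bid, Bad, Bik and Hrk, had class differences of 0.55, 0.23, -0.29 and 0.36 and were not called, like Bbc3.

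Because Pmaip1 and Bbc3 are also induced through the stress factors ATF4 and CHOP, 16 genes of that response were counted. In the mean over the highly metastatic lines 0 rose and 4 fell (2.85% and 2.51% of genes), with 2 higher and 9 lower by limma's adjusted p alone (15.9% and 14.4%) and a median of -0.27. These were Slc7a11, a cystine transporter (-1.59, adjusted p = 5.94e-05), Chac1, which degrades glutathione (-1.28, adjusted p = 2.65e-07), Vldlr, a lipoprotein receptor (-1.25, adjusted p = 0.00765) and Nupr1, a stress-induced nuclear protein (-1.16, adjusted p = 0.00103). Chac1 measured 1834 ± 35.5 for KC1, 519.9 ± 40.7 for KC2 and 4740.4 ± 217 for KC3, beside 4001 ± 138 for KC4 (SD, n = 3 each), so KC2 was low and KC3 was above KC4. Slc7a11 measured 301 ± 14.2 for KC1, 105 ± 20.8 for KC2 and 591 ± 98.9 for KC3, beside 801 ± 127 for KC4 (SD, n = 3 each). Vldlr measured 622 ± 22.5 for KC1, 35 ± 10.5 for KC2 and 59.7 ± 23.3 for KC3, beside 251 ± 6.83 for KC4 (SD, n = 3 each), and against KC4 it was called higher in KC1 (1.31, adjusted p = 0.0207) and lower in KC2 (-2.89, adjusted p = 0.000149) and KC3 (-2.16, adjusted p = 0.00104). Nupr1 measured 1371 ± 144 for KC1, 129 ± 34.1 for KC2 and 4045 ± 694 for KC3, beside 1989 ± 229.9 for KC4 (SD, n = 3 each), and against KC4 it was called lower in KC2 (-3.97, adjusted p = 1.55e-06) and higher in KC3 (1.02, adjusted p = 0.00667). For Chac1, Vldlr and Nupr1 the class difference therefore averages lines on both sides of KC4. Of the 16 genes, 6 set KC2 apart, 3 KC3, 1 KC1 and 0 KC4. Over all genes, KC2 was apart as higher for 0.808% and as lower for 1.01%, KC3 for 0.824% and 1.51%, KC1 for 0.704% and 0.143%, and KC4 for 0.676% and 0.907%. Without line KC2 the class differences were -0.44 for Chac1, -0.42 for Vldlr, -0.92 for Slc7a11, -0.17 for Gadd45a and 0.24 for Nupr1, none of them called. Of the 9 genes called in these lists, 8 lost the call with the line as a random block, and Bcl2l11 kept it (adjusted p = 0.00812, 7.81e-08 to 0.00812 over all alternatives). The adjusted p of the 8 was then 0.383 to 0.984. Averaged over all their probe sets, Psrc1 was at 0.66, Bcl2l11 at 0.73 and Vldlr at -0.78, all under the call. Vldlr was also under it with a floor of 64 (-0.84) and without line KC3 (-0.79). Without line KC2, Bcl2l11 was at 0.89 and Bmf at 0.65, under the call. Without line KC1, Igfbp3 was at 0.86 and Psrc1 at 0.77, and without line KC3 they were at 0.70 and 0.74.

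**Figure D4:**
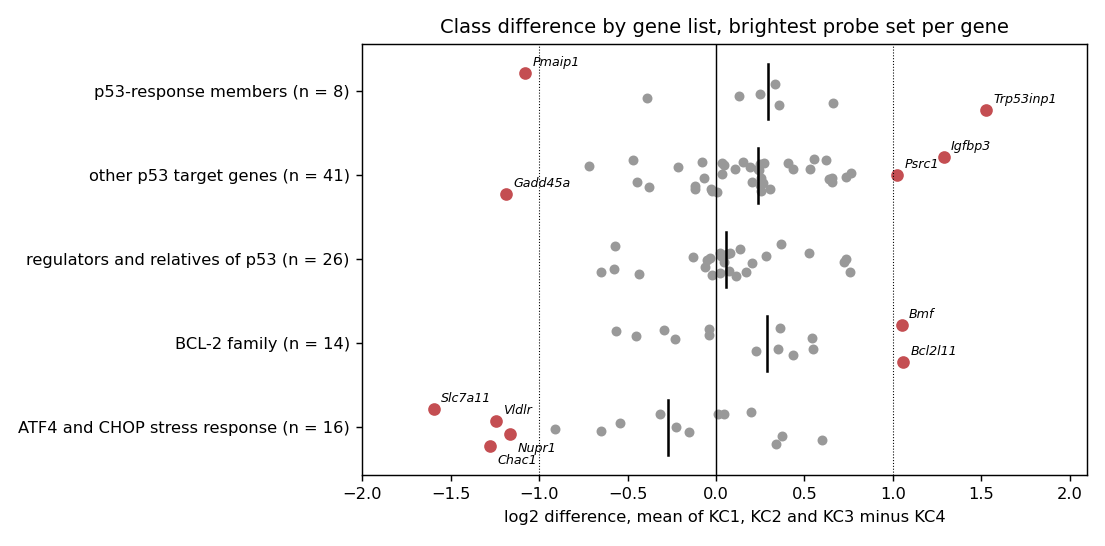
Class difference, mean over KC1, KC2 and KC3, minus KC4 on the log2 scale, for each gene of 5 lists on its brightest probe set (points; red, called; black bar, median of the list; dotted lines at a difference of 1 in either direction). The medians are 0.29, 0.24, 0.05, 0.29 and -0.27 from top to bottom, and the called genes are named.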

How the data were processed

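RNA of 12 samples was measured on one-colour 3-prime expression arrays. The deposited table holds linear intensity values for 45101 probe sets on each array. Their trimmed means agree between arrays, while the software, scaling, background correction and detection calls behind it are not given in the sources used here. Total RNA was labelled with biotin, per the labels.

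After 64 control probe sets were left out, values below 16 were raised to 16 before log2 was taken. Gene names came from the platform annotation, in which 34945 probe sets had 1 symbol, 932 several and 9160 were not listed. One limma model (version 3.58.1, R 4.3.3) with a coefficient for each line was fitted to all 12 arrays, with moderated variances (prior degrees of freedom 0.7) and Benjamini-Hochberg adjustment over 45037 probe sets within each contrast. The code was tested on simulated data. A gene of several probe sets was counted by the one with the highest mean. Equal trimmed means hide shifts in average brightness, so a change in total RNA per cell would not be seen, and levels of different probe sets are not comparable. The number of arrays, 3 per line, and the single poorly metastatic line limit the precision.

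The members and gene lists were chosen with earlier results of these data known. Every member was named. From each other list, up to 4 called genes of largest class difference were named, together with Cdkn1a. Genes that set a line apart were named after their values were seen. The alternatives were the replicate block, leaving out arrays or lines, the line as a random block or ignored, probe set choice, a filter on dim probe sets, 2 other normalizations, floors, an intensity trend and other minimum differences.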

Additional observations from a re-analysis of the deposited data

How the results depend on the processing

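Limits first: 3 arrays per line and 1 line in the poorly metastatic class bound what the tests can show, and dim probe sets near the floor of 16 carry little information. The main counts were 2067 probe sets called by class, of which 2 were members, 12 members past the adjusted p, 14 member calls over the pairs, 7249 probe sets called among the lines with 6 members, and 581 that set KC4 apart with 1 member. Leaving out each array in turn gave 1960 to 2065, 2 to 3, 11 to 12, 10 to 16, 6869 to 7426 with 5 to 8, and 548 to 605 with 1 to 1. No pairing of the samples by replicate number was seen. Deviations of same-numbered arrays from their line means correlated at -0.12 to 0.0879 over 18 pairs, and of other-numbered arrays at -0.125 to 0.129 over 36 pairs. With 3 arrays per line, this check cannot decide whether same-numbered samples were handled together. With the replicate number as a block, 2009 probe sets and 2 members were called by class, 12 members passed the adjusted p, and the member calls over the pairs numbered 13, the lost one being the dim Mdm2 probe set 1457929_at for KC2 minus KC3 (limma adjusted p = 0.0501). With the line as a random block (correlation within lines 0.426), 508 probe sets were called, 1 member was called and 2 members passed the adjusted p. With the line ignored, 982 were called and 5 members passed. With 1 probe set per gene, the counts were 991 by class, 7 members past the adjusted p, 8 pair calls, 3448 among the lines and 296 apart in KC4. With the mean of the probe sets they were 879, 6, 8, 3104 and 260; fewer features were tested in both. Without the dimmer 50% of probe sets, 1257 were called by class, of fewer tested. With no minimum difference, 10542 probe sets and 12 members were called by class, 59 pair calls were made, 17388 and 13 varied among the lines, and 2970 and 7 set KC4 apart. With a minimum of 2, these were 465, 0, 0, 2036, 0, 144 and 0. Nupr1 turned to 0.24 without line KC2; the cause was not tested. Median centring took the KC3 minus KC4 difference of Pmaip1 to -0.97, short of the call, and moved the lines by 0.05, 0.09, -0.16 and 0.02 (KC1 to KC4). Of 112 member differences, 2 changed sign with quantile normalization and 8 with median centring, and 0 of these had passed the adjusted p. The call of Zmat3 for KC3 minus KC4 ended at 0.998 without KC3 replicate 1.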
